A study of Arabidopsis thaliana with 16 samples.

Results

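The genes described here are 2 transcription factor genes of the Arabidopsis thaliana iron deficiency response, BHLH101 (AT5G04150) and PYE (AT3G47640), and 2 genes of coumarin synthesis, AT3G13610 and AT3G12900. They were chosen by name from the probe annotation: each has 1 probe set, so they are 4 of the 22746 non-control probe sets on the array (245692_at, 252427_at, 256647_at and 257135_at, in the order given). All 4 passed the filter on low intensities. BHLH101 and AT3G12900 passed it through zone 4 alone, so a difference between zone 4 and the other zones was built into their being tested. For AT3G12900 only the pH 4.6 mean of zone 4 was above the filter, so its difference between pH values there was favoured too. PYE and AT3G13610 passed in all 4 zones.

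Roots of Columbia ecotype seedlings were measured at 6 days of age, and the labels name no mutation or transgene. All seedlings grew for 5 days on MES-buffered medium at pH 5.7 and then spent 24 h on fresh medium of pH 4.6 (low pH) or pH 5.7 (standard pH). Both fresh media contained the same Murashige and Skoog salts, 3 mM DMG, 1% sucrose and 1% agar, so the groups differed from transfer onward by pH alone. Each root was cut into 4 longitudinal zones, numbered 1 to 4, whose boundaries and tissues the labels do not define. Each of the 8 combinations of zone and pH had 2 arrays, 16 in all. The labels do not say that replicates came from separate cultures, so the p-values reflect the spread among these arrays alone, possibly a technical one. With 2 arrays against 2, an exact permutation test cannot go below p = 0.333, so all tests come from 1 limma fit over all probe sets, and a gene is said to have passed where its Benjamini-Hochberg adjusted p was under 0.05.

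Arabidopsis takes up iron by acidifying the soil, reducing ferric iron at the root surface and importing the ferrous ion. Basic helix-loop-helix (bHLH) factors control this programme: BHLH101 belongs to a small group whose genes are induced by iron shortage and whose proteins pair with the factor FIT to activate uptake genes, whereas PYE (POPEYE) restrains genes of iron transport and storage and is prominent in the stele. Coumarins are phenolic compounds that roots secrete to mobilise iron. AT3G13610 (F6'H1) encodes feruloyl-CoA 6'-hydroxylase, the enzyme that commits feruloyl-CoA to the coumarin scopoletin, and AT3G12900 (S8H) encodes scopoletin 8-hydroxylase, which converts scopoletin to fraxetin, a coumarin known to mobilise iron in less acidic media.

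The deposited values are MAS5 intensities, 1 linear number per probe set and array. The arrays had been scaled to a common trimmed mean of 250.03, with medians of 64.7 to 101 and first quartiles of 15.6 to 38.4. Replicates correlated across probe sets with r of 0.839 to 0.958. In 4 groups the second replicate stood more than 1 log2 unit above the first in the mean of the plastid-encoded genes (zone 2 at pH 5.7, zone 3 at both pH values and zone 4 at pH 5.7). These 4 arrays are called plastid-shifted below, for their gap to their own replicate and not for their level. Both pH 4.6 arrays of zone 1 (plastid means 9.91 and 10.29) stayed in every such comparison. They exceeded the marked arrays of zone 2 (9.75), zone 3 at pH 4.6 (9.89) and zone 4 (8.45), and not that of zone 3 at pH 5.7 (10.31). Differences are in log2(intensity + 16) ± SE of the fit, a scale that understates changes of dim probe sets. In such bulk samples, fewer cells of a type and less RNA per cell cannot be told apart.

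Along the root, the 4 genes did not share one profile. AT3G13610 was 6.51-fold higher in zone 3 than in zone 2 at standard pH, and it was higher at low pH in zone 1 and in the mean over zones. AT3G12900 and BHLH101 were dim in zones 1 to 3 and reached their highest intensities in zone 4 at low pH. PYE stayed between 65.2 and 260 on all 16 arrays and passed no test. Low pH passed the test for 1 of the 4 genes, AT3G13610, both as the mean over the 4 zones and in zone 1. In these comparisons 6.36% and 0.702% of all 15951 tested probe sets passed.

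**Figure D1:**
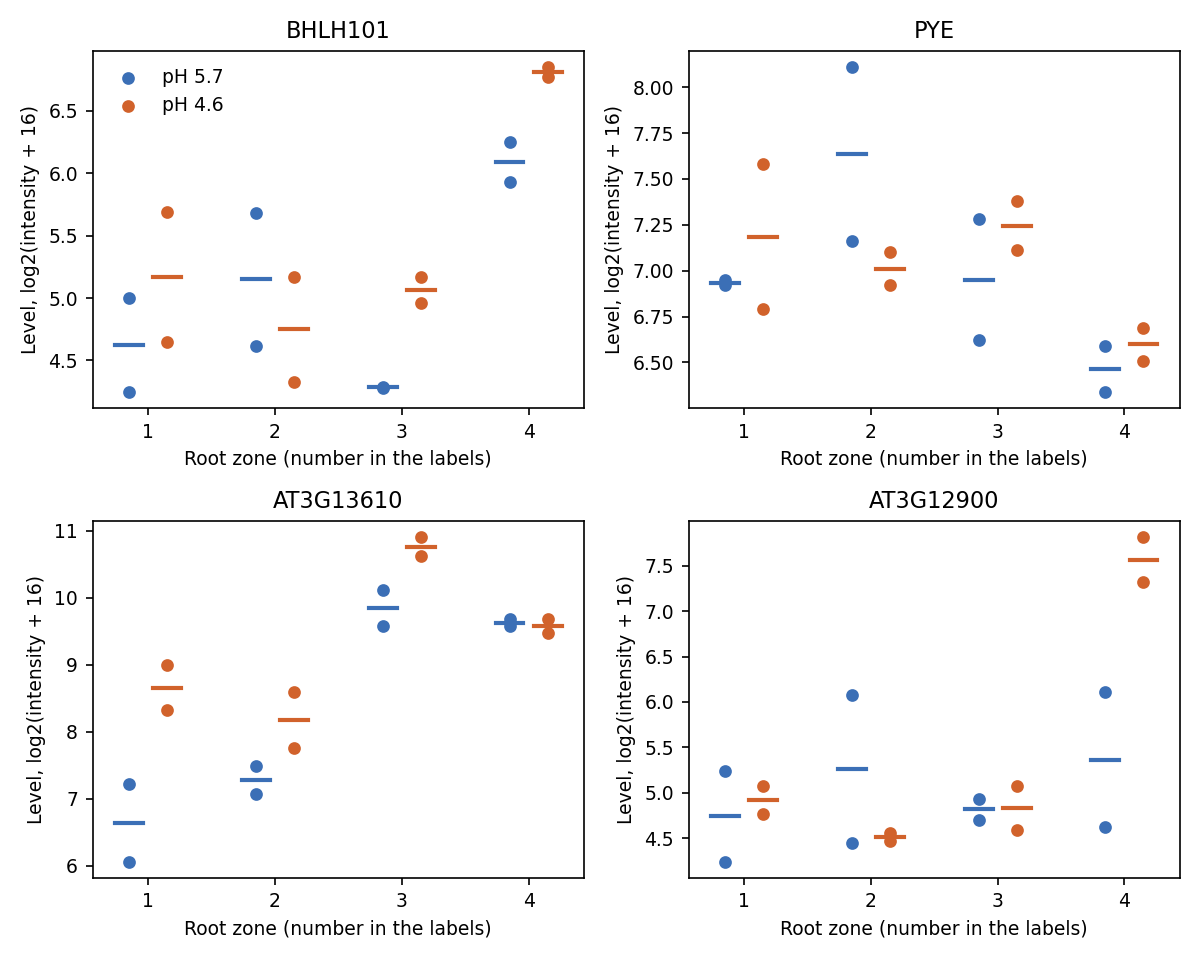
Level of BHLH101, PYE, AT3G13610 and AT3G12900, log2(intensity + 16) on the y axis, by root zone and pH; points are the 2 arrays of each group, bars their mean, and each panel has its own y axis. AT3G13610 was highest in zone 3, and BHLH101 and AT3G12900 were highest in zone 4 at pH 4.6.

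BHLH101 was close to the bottom of the intensity range outside zone 4. In zone 1 its 2 arrays read 16.1 and 2.98 at pH 5.7, and 35.7 and 9.12 at pH 4.6. In zone 2 they read 8.56 and 35.2 at pH 5.7, and 20.1 and 4.18 at pH 4.6. In both zones the groups overlapped, and replicates differed by as much as 1.06 log2 units (zone 2 at pH 5.7). Zone 3 gave 3.53 and 3.45 at pH 5.7 and 20.1 and 15.2 at pH 4.6. Zone 4 gave 45.0 and 60.3 at pH 5.7 and 92.8 and 99.0 at pH 4.6. In zones 3 and 4 both low pH arrays stood above both standard arrays, a separation shown by 24.1% and 29.3% of all tested probe sets. Of the 16 arrays, 9 had BHLH101 below the array's first quartile and 7 below the pseudocount of 16, so differences among zones 1 to 3 are between values near background.

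The low pH effect on BHLH101 did not pass in any zone. It was 0.55 in zone 1, -0.39 in zone 2, 0.78 in zone 3 and 0.71 in zone 4, each ± 0.57, with adjusted p from 0.53 to 0.88. The mean over zones was 0.41 ± 0.29 (adjusted p = 0.464), with a 95% interval of -0.20 to 1.02, which just includes a doubling on this scale. The percentages passing were 0.42% in zone 2, 2.9% in zone 3 and 3% in zone 4. Without the 4 plastid-shifted arrays the zone 2 effect turned to 0.14.

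Along the root, BHLH101 varied between zones at pH 4.6 (F = 5.19, adjusted p = 0.0332), a test passed by 39.1% of probe sets. At pH 5.7 the same F-test gave adjusted p = 0.0623, where 49.6% passed. BHLH101 reached the filter in zone 4 alone. These F-tests and the steps into zone 4 were thus favoured by the filter and give no separate support. From zone 3 to zone 4 the difference was 1.81 ± 0.57 at pH 5.7 (adjusted p = 0.0509, 12.4% passing) and 1.74 ± 0.57 at pH 4.6 (adjusted p = 0.109, 4.39% passing), with all zone 4 arrays above all zone 3 arrays at both pH values, as for 26.4% of probe sets at pH 5.7 and 26.3% at pH 4.6. The first of these sat at the threshold: it passed with each array centred on its median (2.01, adjusted p = 0.0288), after quantile normalization (2.00, 0.0254), without the filter (0.0443) and without the intensity trend (0.0232). It did not pass without the plastid-shifted arrays (1.64, adjusted p = 0.254). The second passed with a pseudocount of 64 (0.97, adjusted p = 0.0407) and was 1.63 (adjusted p = 0.239) without the plastid-shifted arrays. Ordered by mean level, zone 4 at pH 4.6 (6.81) came first, then zone 4 at pH 5.7 (6.09), and the 6 groups of zones 1 to 3 followed between 5.17 and 4.28. The arrays of neighbours were apart only at the steps from the first to the second and from the second to the third group, and no step between neighbours passed the test.

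PYE was well above the dim range on every array. Zone 1 gave 108 and 105 at pH 5.7 against 175 and 94.9 at pH 4.6, and zone 3 gave 82.2 and 139 against 122 and 151. Zone 4 gave 65.2 and 80.6 at pH 5.7 and 87.1 and 75.3 at pH 4.6. In these 3 zones the standard and low pH arrays overlapped. Zone 2 gave 127 and 260 at pH 5.7 and 105 and 121 at pH 4.6, so both low pH arrays lay below both standard arrays, as did those of 21.1% of all tested probe sets. The value of 260 was the highest of the 16 and came from a plastid-shifted array.

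No low pH effect on PYE passed. The effects were 0.25, -0.62, 0.30 and 0.13 in zones 1 to 4, each ± 0.40, and their mean was 0.01 ± 0.20 (adjusted p = 0.983) with a 95% interval of -0.41 to 0.44. The zone 2 effect rested on the array at 260: without it, and without the 4 plastid-shifted arrays, it was -0.15 (adjusted p = 0.992 and 0.945), and without the other pH 5.7 array of zone 2 it was -1.10 (adjusted p = 0.355). On this scale the interval of the mean leaves out a doubling or a halving of the mean level over the zones. The difference over zones did not pass at pH 5.7 (adjusted p = 0.114) or at pH 4.6 (adjusted p = 0.493). The order began with the pH 5.7 arrays of zone 2 (7.63) and ended with those of zone 4 (6.47), with both zone 4 groups last, and no neighbours in it differed by the test.

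PYE moved with measures of the arrays themselves. Over the 16 arrays its level correlated with the mean of the plastid-encoded genes (r = 0.639), with the log2 first quartile of the array (r = 0.598) and with the 3' to 5' signal ratio of the GAPDH control probe sets (r = 0.522). These arrays share zones and pH values, and the coefficients are given as a description. In 6 of the 8 groups the replicate with the higher plastid mean also had the higher PYE value, and in 7 of 8 the one with the higher first quartile did. For BHLH101, AT3G13610 and AT3G12900 the correlations with these 3 measures lay between -0.376 and 0.318. The replicate counts were not particular to PYE. For the plastid mean AT3G13610 also had 6 of 8, AT3G12900 5 and BHLH101 2. For the first quartile they had 5, 6 and 3 in that order. For the GAPDH ratio AT3G12900 had 7, PYE 6, and AT3G13610 and BHLH101 4 each. The part of these measures in the PYE values was not tested.

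**Figure D2:**
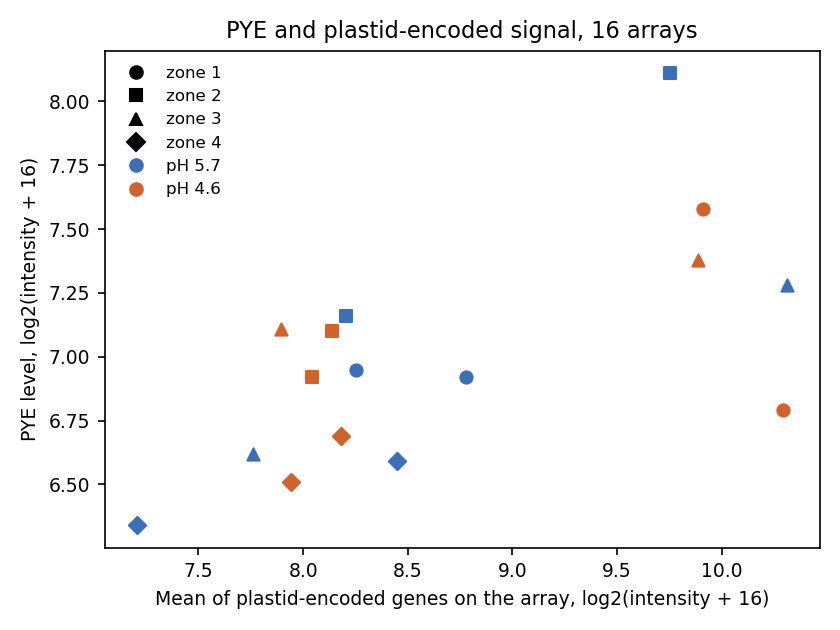
PYE level against the mean of the plastid-encoded genes, both in log2(intensity + 16), for the 16 arrays; the shape of a point gives the zone and its colour the pH. PYE tended to be higher on arrays with more plastid signal (r = 0.639), and its highest value was zone 2, pH 5.7, replicate 2.

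AT3G13610 was the gene of the 4 with a response to low pH past the threshold. In zone 1 its arrays read 134 and 50.7 at pH 5.7 against 304 and 494 at pH 4.6. In zone 2 they read 118 and 164 against 201 and 369, and in zone 3 they read 748 and 1090 against 1560 and 1910. Both low pH arrays exceeded both standard arrays in these 3 zones, a separation found in 25.8%, 21.2% and 24.1% of all probe sets in zones 1, 2 and 3. In zone 4 the arrays overlapped, with 748 and 805 at pH 5.7 and 697 and 810 at pH 4.6.

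AT3G13610 rose by 2.02 ± 0.40 in zone 1 at low pH (adjusted p = 0.0323), with mean intensities 4.33-fold apart. The 95% interval was 1.17 to 2.86, and 0.313% of probe sets passed upwards in that zone. In zones 2 and 3 the differences were 0.90 and 0.92 ± 0.40, or 2.02-fold and 1.88-fold in mean intensity, and did not pass after adjustment (adjusted p = 0.43 and 0.242). In zone 4 it was -0.05 ± 0.40 (adjusted p = 0.979) with a 95% interval of -0.89 to 0.80. The mean over the zones was 0.95 ± 0.20 (adjusted p = 0.0107; 95% interval 0.52 to 1.37) in a comparison where 3.86% of probe sets passed upwards. It passed in all 8 alternatives tried and with any 1 of the 16 arrays left out, with adjusted p between 0.00483 and 0.0473.

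The zone 1 call was less stable than the mean. Leaving out the second pH 5.7 replicate of zone 1, the lowest value of all 16, gave 1.43 (adjusted p = 0.241). Leaving out either pH 4.6 replicate of zone 1 gave 2.35 (adjusted p = 0.0665) and 1.68 (adjusted p = 0.0849) for the first and the second. The call was also lost without either pH 4.6 array of zone 4, which left the difference at 2.02 but moved the adjusted p to 0.0578 and 0.0586. Zone 1 arrays differed by pH in other ways: the plastid-encoded mean was 9.91 and 10.29 at pH 4.6 against 8.25 and 8.78 at pH 5.7, and the first quartile 27.4 and 25.8 against 19.3 and 20.1. The GAPDH 3' to 5' signal ratio (log2) was 7.99 and 5.77 against 4.95 and 5.59. The summed intensity of the 3 meristem markers of 8 listed that the annotation named ranged from 326 to 490 at pH 4.6 and from 676 to 683 at pH 5.7; AUR1 and AUR2 were lower at pH 4.6, while BBM overlapped, with 176 and 116 against 132 and 112. The meristem sum was not particular to zone 1: in zone 4 it ranged from 339 to 497 at pH 4.6 and from 451 to 533 at pH 5.7. In zone 1 the sum of the 2 shoot markers named of 5 ranged from 94.6 to 97.4 at pH 4.6 and from 268 to 273 at pH 5.7. The part of these in the zone 1 result was not tested.

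**Figure D3:**
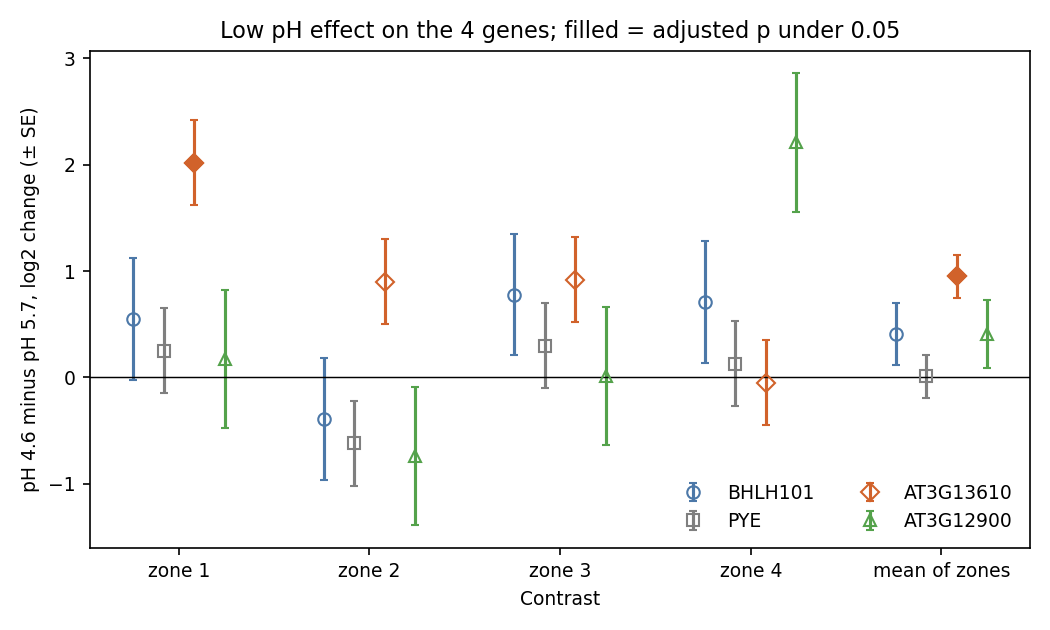
Low pH effect (pH 4.6 minus pH 5.7, log2 change ± SE of the fit, y axis) on BHLH101, PYE, AT3G13610 and AT3G12900 in each zone and as the mean of the 4 zones (x axis); filled symbols have an adjusted p under 0.05. Filled symbols are AT3G13610 in zone 1 (2.02) and its mean (0.95); AT3G12900 in zone 4 (2.21) is open with an adjusted p of 0.0803.

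The low pH effects on AT3G13610 in different zones could not be told apart by test. The interaction of zone and pH gave F = 4.51 (adjusted p = 0.196), and 1.63% of probe sets passed it. The low pH effect was 1.12 lower in zone 2 than in zone 1 (-1.12 ± 0.56, adjusted p = 0.722, 0% of probe sets passing) and 0.97 lower in zone 4 than in zone 3 (-0.97 ± 0.56, adjusted p = 0.426).

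The step between zones 2 and 3 was the largest difference of AT3G13610 along the root. It rose by 2.56 ± 0.40 from zone 2 to zone 3 at pH 5.7 (adjusted p = 0.000163), when 14% of probe sets passed upwards. At pH 4.6 the rise was 2.59 ± 0.40 (adjusted p = 0.000306), 6.08-fold in mean intensity, with 10.4% passing upwards. All zone 3 arrays lay above all zone 2 arrays, as for 25.5% of probe sets at pH 5.7 and 30.4% at pH 4.6. Both held under every alternative and each array left out. Between zones 1 and 2 the steps were 0.64 at pH 5.7 and -0.48 at pH 4.6, with adjusted p of 0.463 and 0.493 (3.27% and 9% of probe sets passing). Between zones 3 and 4 the step was -0.22 at pH 5.7 (adjusted p = 0.756) and -1.18 at pH 4.6 (adjusted p = 0.116), where both zone 4 arrays lay below both zone 3 arrays, as for 26.2% of probe sets. The F-test over zones passed at pH 5.7 (F = 33.6, adjusted p = 8.99e-06) and at pH 4.6 (F = 16.5, adjusted p = 0.000421). These tests were passed by 49.6% and 39.1% of all probe sets.

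Zone 3 at pH 4.6 had the highest level of AT3G13610 (10.76), followed by zone 3 at pH 5.7 (9.84), zone 4 at pH 5.7 (9.63) and zone 4 at pH 4.6 (9.58). Zone 1 at pH 4.6 (8.66) and zone 2 at pH 4.6 (8.18) came next, above zone 2 (7.28) and zone 1 (6.64) at pH 5.7. At low pH zone 1 stood above zone 2 in this order, with overlapping arrays. No step between neighbours passed the test. The whole range of AT3G13610, from 50.7 to 1910, was 4.85 log2 units, against 1.77 for PYE.

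AT3G12900, which encodes a later enzyme of the pathway, was dim in most samples. In zone 1 it read 2.87 and 21.8 at pH 5.7 and 17.5 and 11.1 at pH 4.6. In zone 2 it read 5.67 and 51.5 against 7.59 and 6.18, and in zone 3 it read 10.0 and 14.5 against 8.06 and 17.6. The groups overlapped in all 3 zones. In zone 4 it read 8.64 and 53.0 at pH 5.7 and 144 and 210 at pH 4.6. Both low pH arrays thus stood above both standard arrays, as did those of 29.3% of all tested probe sets. AT3G12900 was below the array's first quartile on 11 of 16 arrays and below 16 on 9, and the replicates of zone 2 at pH 5.7 were 1.64 log2 units apart.

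In zone 4 the low pH difference of AT3G12900 was 2.21 ± 0.65, or 5.74-fold in mean intensity, and missed the threshold (adjusted p = 0.0803; 95% interval 0.83 to 3.59). It passed with a pseudocount of 64 (1.37, adjusted p = 0.0152), without the plastid-shifted arrays (2.95, adjusted p = 0.045) and with the spread taken from the zone 4 arrays alone (2.21, adjusted p = 0.0346). Without the first pH 5.7 replicate of zone 4, at 8.64, the difference was 1.46 (adjusted p = 0.445). The 3 other zones gave 0.17, -0.74 and 0.01 ± 0.65, and the mean over zones was 0.41 ± 0.32 (adjusted p = 0.527). The effect in zone 4 exceeded that in zone 3 by 2.19 ± 0.92, which did not pass (adjusted p = 0.239, 1.76% of probe sets passing), nor did the interaction (F = 3.77, adjusted p = 0.245).

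AT3G12900 rose from zone 3 to zone 4 at pH 4.6 by 2.74 ± 0.65 (adjusted p = 0.0251), 13.8-fold in mean intensity, a step that 1.97% of probe sets passed upwards. At pH 5.7 the same step was 0.55 ± 0.65 (adjusted p = 0.61) with overlapping arrays. Without the plastid-shifted arrays the step at pH 4.6 was 2.98 (adjusted p = 0.0337). The call at pH 4.6 was lost with a pseudocount of 1 (3.75, adjusted p = 0.131) and without any 1 of 3 arrays: the first (2.50, 0.164) or second (2.98, 0.0867) of zone 3, or the first of zone 4 (2.99, 0.116). Without the second array of zone 4 the probe set no longer passed the filter. The F-test over zones passed at pH 4.6 (F = 9.58, adjusted p = 0.00411), as for 39.1% of probe sets. At pH 5.7, where 49.6% passed, it did not (adjusted p = 0.749). AT3G12900 reached the filter in zone 4 alone. Tests of a higher zone 4 were thus favoured by the filter and give no separate support. In the order of levels, zone 4 at pH 4.6 (7.57) stood first with its arrays apart from the next, zone 4 at pH 5.7 (5.37), and the remaining 6 groups lay between 5.26 and 4.52 with overlapping neighbours.

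In zone 4, other measures also differed by pH. The GAPDH 3' to 5' signal ratio (log2) was 5.67 and 4.92 at pH 4.6 against 3.25 and 3.65 at pH 5.7, and the ubiquitin ratio 3.24 and 2.76 against 2.26 and 2.55. The actin ratio overlapped, with 4.85 and 5.29 against 4.99 and 5.17. The summed intensity of 4 root hair markers (of 10 listed, with EXPA7 and EXPA18 among them) was 131 and 211 at pH 4.6 against 1410 and 1620. That of GSO1, the 1 endodermis marker of 6 that was named, was 772 and 804 against 403 and 439. Named markers read as low as 1.68 (BBM in zone 4 at pH 5.7), so a value above 0 does not show that a marker was detected. None of the listed stele, root cap or non-hair epidermis markers was named on the array. The part of these measures in the zone 4 values of BHLH101 and AT3G12900 was not tested. In zone 3 the root hair sum was 2020 and 2410 at pH 4.6 against 10200 and 13700 at pH 5.7, beside AT3G13610 values that were higher at pH 4.6, and its part in them was not tested either.

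BHLH101 and AT3G12900 had similar profiles over the 16 arrays (r = 0.782), and both were highest on the 2 low pH arrays of zone 4. Both reached the filter in zone 4 alone, so a shared high zone 4 was favoured by the filter. They read below 16 on 7 and 9 of the 16 arrays, so much of the rest of their profiles was near background. The other 5 pairs of the 4 genes had r between -0.234 and 0.261. The arrays share zones and pH values, so these values describe the profiles and were not tested. Among 8842 other named genes, the closest profiles to BHLH101 were those of AT1G51890 (r = 0.887), PUCHI (0.873), which encodes a transcription factor of lateral root formation, and AT2G43670 (0.871). Closest to AT3G12900 were AT1G49570 (r = 0.929), AT1G24430 (0.891) and AT4G19370 (0.86). For AT3G13610 they were AT5G54660 (r = 0.945), AT1G56700 (0.929) and AT2G42360 (0.927), and for PYE they were AT3G62370 (0.845), AT5G14150 (0.842) and AT3G15910 (0.842).

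The other genes of the pathways were counted from lists. Of 24 listed iron regulators, 14 were named on the array and 12 were tested, 10 of them besides BHLH101 and PYE. Of 31 genes of iron uptake, transport and storage, AT3G58060 alone was named and tested, so the classical uptake genes were not analysed here. Of 23 coumarin and phenylpropanoid genes, 7 were tested, 5 besides AT3G13610 and AT3G12900. Among these 16 other genes the mean low pH effect passed for 1, which rose, a share close to the 6.36% of all probe sets, and its median was 0.12 against 0.04 over all probe sets.

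That gene was bHLH115, which encodes a bHLH factor known to activate genes of the BHLH101 group. In zone 3 it read 715 and 549 at pH 5.7 against 1070 and 1110 at pH 4.6, and in zone 4 782 and 1050 against 1570 and 1850. The arrays did not overlap in either zone, an upward separation shown by 24.1% and 29.3% of all tested probe sets. The effects in these zones, 0.79 and 0.89 ± 0.30, did not pass (adjusted p = 0.173 and 0.121). Its mean effect was 0.57 ± 0.15 (adjusted p = 0.031). The call was lost with median centring (0.51, adjusted p = 0.149), without the intensity trend (0.0596) and without the plastid-shifted arrays (0.53, 0.1), and it held in 6 of the 16 fits with 1 array left out. No regulator passed in a single zone. AT1G74770 in zone 4, with 345 and 258 at pH 5.7 and 842 and 736 at pH 4.6, came near (1.35 ± 0.35, adjusted p = 0.0517).

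**Figure D4:**
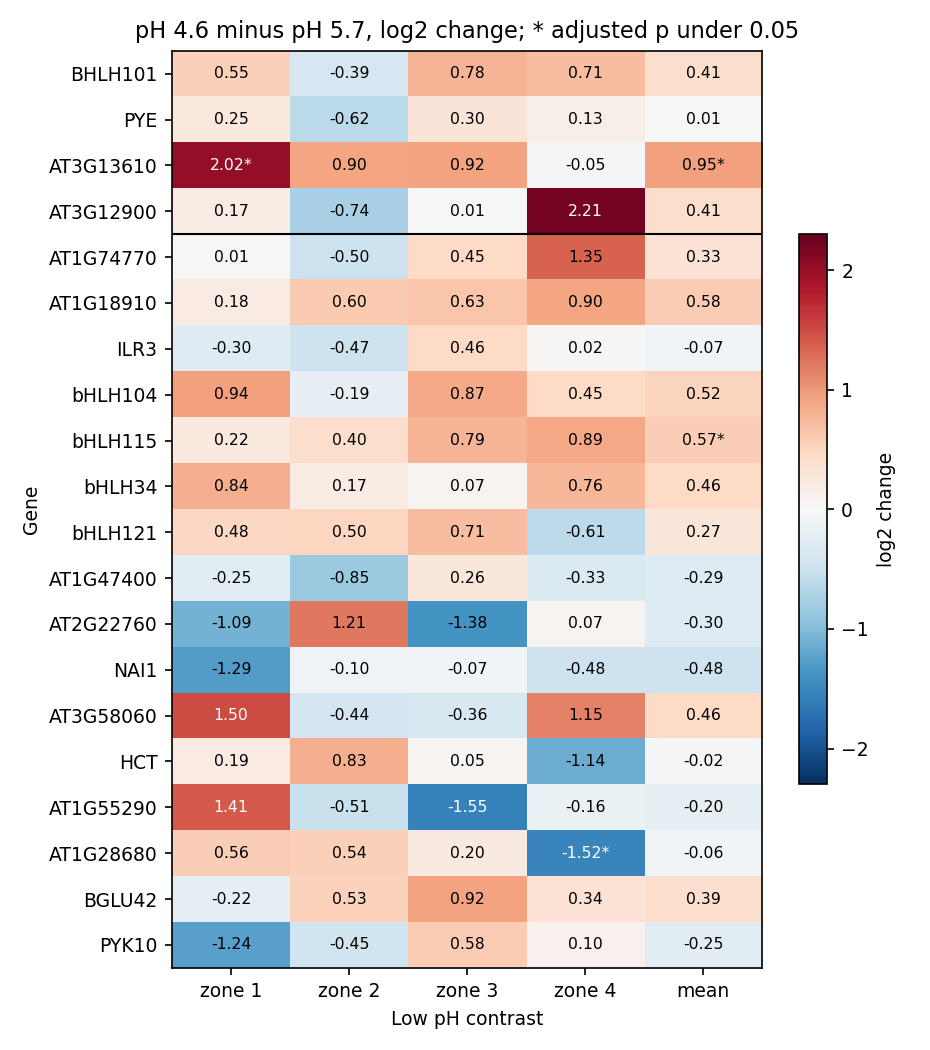
Low pH effect (log2 change, colour and printed value) in each zone and as the mean of zones (columns) for BHLH101, PYE, AT3G13610 and AT3G12900, above the line, and the 16 other tested genes of the iron and coumarin lists (rows); an asterisk marks an adjusted p under 0.05. Outside the 4 genes, bHLH115 in the mean (0.57) and AT1G28680 in zone 4 (-1.52) are marked.

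Within zones, 0 of the 16 other genes passed in zones 1, 2 and 3 by limma, where 5, 2 and 4 had an unadjusted p under 0.05, as did 13%, 10.6% and 17.4% of all probe sets. In zone 4, 1 of 16 passed and 6 had an unadjusted p under 0.05, as did 16.4% of all probe sets. This was AT1G28680, from the coumarin list, which fell by 1.52 ± 0.30 (adjusted p = 0.0113), from 2080 and 2570 at pH 5.7 to 944 and 667 at pH 4.6. The call was lost without any 1 of the 4 arrays of zone 4 (adjusted p up to 0.144) and without the plastid-shifted arrays (-1.37, adjusted p = 0.0951). HCT, which encodes an acyltransferase of the phenylpropanoid pathway that feeds coumarin and lignin synthesis, gave -1.14 ± 0.31 in zone 4 (adjusted p = 0.0623). In the same zone AT3G13610 gave -0.05 and AT3G12900 2.21, neither past the threshold.

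AT3G13610 shared its rise from zone 2 to zone 3 with other genes of the coumarin list. At pH 5.7, where 14% of all probe sets passed upwards, 4 of the 5 others rose: AT1G28680 by 3.02, HCT by 2.70, AT1G55290 (F6'H2, a second feruloyl-CoA 6'-hydroxylase gene) by 2.50 and PYK10, a beta-glucosidase gene, by 1.05. BGLU42, a beta-glucosidase gene linked to coumarin release, went the other way without passing. It gave -0.74 ± 0.28 at pH 5.7 (adjusted p = 0.0555) and -0.34 ± 0.28 at pH 4.6 (adjusted p = 0.433). At pH 4.6, where 10.4% passed upwards, 3 of the 5 rose: AT1G28680 by 2.67, PYK10 by 2.08 and HCT by 1.93. From zone 3 to zone 4 at pH 4.6, where 4.39% of probe sets passed in either direction, 2 of the 5 fell: AT1G28680 by 1.81 and HCT by 1.16. AT1G55290 (-0.55), BGLU42 (0.02) and PYK10 (0.60) did not pass there, nor did AT3G13610 (-1.18). PYK10 and AT2G22760 also passed in other steps: PYK10 fell by 1.45 from zone 1 to zone 2 and rose by 1.08 from zone 3 to zone 4 at pH 5.7. In these 2 steps 3.27% and 12.4% of probe sets passed in either direction. The 5 genes had a median step from zone 2 to zone 3 of 2.50 at pH 5.7 and 1.93 at pH 4.6, against -0.07 and -0.03 over all probe sets. The median at pH 5.7 was the value of AT1G55290, a dim gene (3.31 to 329) that reached the filter in zone 3 alone. Its rise into zone 3 was thus favoured by the filter.

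**Figure D5:**
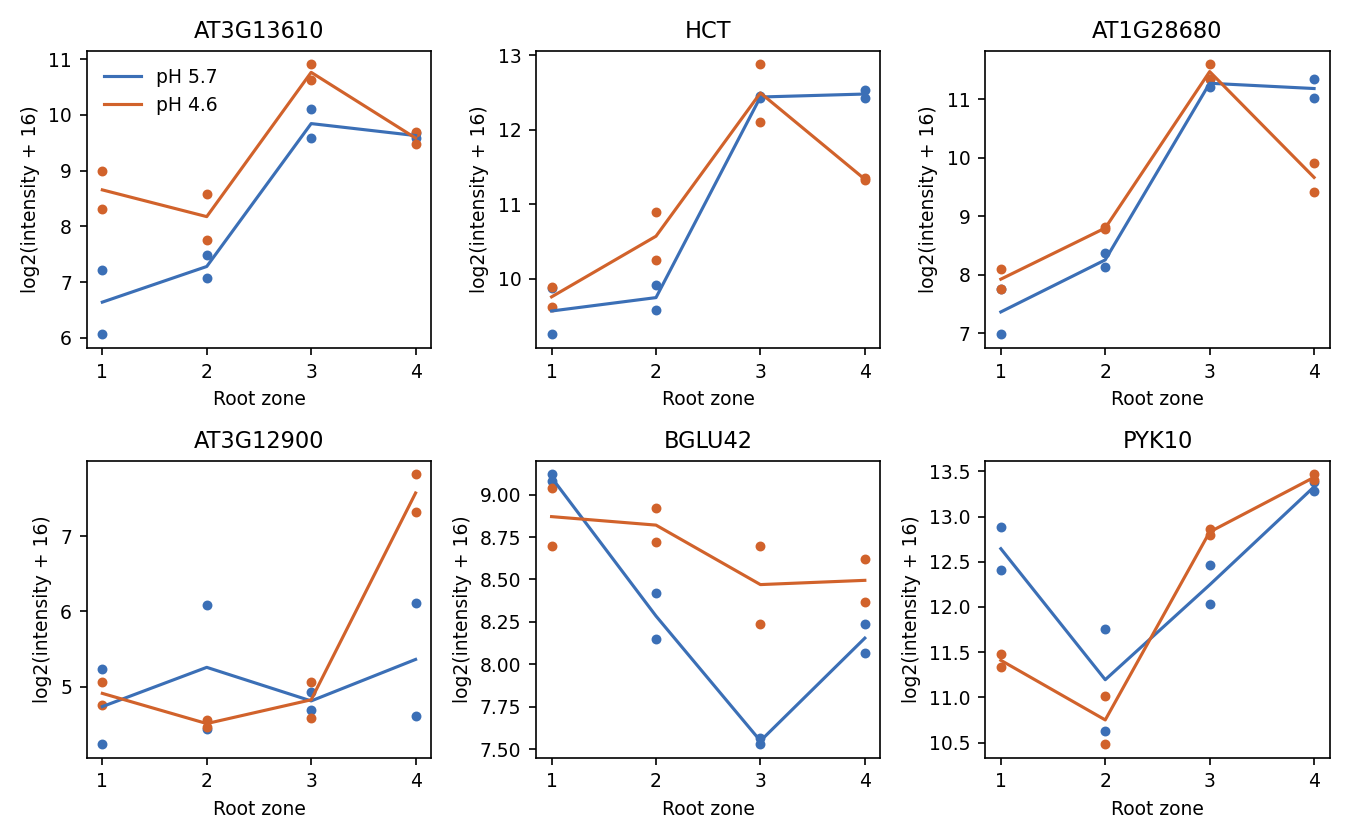
Level in log2(intensity + 16) by root zone (x axis) of AT3G13610, HCT, AT1G28680, AT3G12900, BGLU42 and PYK10 at pH 5.7 and pH 4.6; points are arrays, lines join group means, and each panel has its own y axis, so levels are not compared between panels. AT3G13610, HCT and AT1G28680 rose between zones 2 and 3 at both pH values, and AT3G12900 was highest in zone 4 at pH 4.6.

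The iron regulators other than BHLH101 and PYE also rose at that step in part. At pH 5.7, 3 of 10 passed upwards, against 14% of all probe sets, and 0 downwards: AT2G22760 by 2.05, AT1G74770 by 1.38 and bHLH115 by 1.03. At pH 4.6, 5 of 10 passed upwards, against 10.4%, and 0 downwards, among them AT1G74770 by 2.33, AT1G47400 by 1.92 and bHLH115 by 1.41. The others were bHLH104 (1.22) and ILR3 (1.16), which encode bHLH factors of the group that activates BHLH101 and its relatives under iron shortage. At the same step BHLH101 gave -0.86 at pH 5.7 and 0.31 at pH 4.6, and PYE gave -0.69 and 0.23, none past the threshold. AT2G22760 further rose from zone 1 to zone 2 at pH 4.6 by 1.85 and fell from zone 3 to zone 4 at pH 5.7 by 2.09. In these steps 9% and 12.4% of probe sets passed in either direction. AT1G47400 (1.18 to 79.1) and AT2G22760 (5.2 to 131) were dim and reached the filter in zone 3 alone. Their rises into zone 3, and the fall of AT2G22760 after it, were thus favoured by the filter.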

How the data were processed

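Total RNA of each zone was labelled by 2-cycle amplification for Affymetrix arrays, per the labels' protocols. The deposited intensity values were made by the authors with MAS5, per the submitters' processing notes, which name no version. The 64 control probe sets of 22810 were left out. Intensities were taken as log2(intensity + 16) with no further normalization, and 15951 probe sets with a mean of at least 6.05 (40th percentile of all values) in 1 zone or more were tested. A limma 3.58.1 model (R 4.3.3) of 8 group means was fitted to the 16 arrays (eBayes with trend; 8 residual and 7.27 prior degrees of freedom) and checked on simulated data. All tests were two-sided and adjusted by Benjamini-Hochberg within a contrast over all tested probe sets. The platform annotation gave 13513 probe sets 1 gene and 503 several; 13436 of the former were found in RefSeq's TAIR10.1 table. The probe set with the highest mean stood for a gene. The 4 genes, the pathway lists and the marker lists were chosen with earlier results of these data known. Named besides the 4 genes were listed genes that passed a low pH test, the 4 largest that passed in each zone step, and the 3 nearest profiles of each gene; AT1G74770, HCT, BGLU42 and further listed genes at zone steps were added after their values were seen. Alternatives covered the pseudocount, filter, normalization, trend, replicate block and arrays left out. Genomic positions are left out, since the files state no build. The number of arrays limits the precision.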

Additional observations from a re-analysis of the deposited data

Results flagged for a closer look

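AT1G28680, from the coumarin list, was singled out because its low pH effect differed between zones by the test of that difference (F = 11, adjusted p = 0.037, moderated F-test in limma). The effect was 0.56 in zone 1, 0.54 in zone 2, 0.20 in zone 3 and -1.52 in zone 4. The test of the difference held in 4 of 8 alternatives and in 7 of the 16 fits with 1 array left out, with F from 6.1 to 13.5 in the latter and 6.13 (adjusted p = 0.201) without the plastid-shifted arrays. For BHLH101, PYE, AT3G13610 and AT3G12900 the same test did not pass, with adjusted p of 0.705, 0.629, 0.196 and 0.245.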

How the results depend on the processing

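The replicate numbers were not taken to pair the arrays: deviations of same-numbered arrays correlated at -0.0613, 0.0981, 0.35 and -0.256 between the pH values of zones 1 to 4, and at -0.256 to 0.419 over all 28 pairs of groups. With the replicate block AT3G13610 gave 2.02 (adjusted p = 0.025) in zone 1 and 0.95 (0.00937) in the mean, AT3G12900 gave 2.21 (0.0507) in zone 4, and no call on the 4 genes changed. The zone 1 call of AT3G13610 was lost with median centring (1.86, adjusted p = 0.0656), which moved the median of all probe sets to -0.14 there, without the trend (2.02, 0.0705) and with the arrays of that zone alone (2.02, 0.132). AT3G12900 in zone 4, a difference favoured by the filter, passed with a pseudocount of 64 (1.37), with that zone alone (2.21) and without the 4 plastid-shifted arrays (2.95). The cause was not tested. Small differences that passed no test changed sign. Without the plastid-shifted arrays these were the low pH effects on BHLH101 in zone 2 (0.14), AT3G13610 in zone 4 (0.01) and AT3G12900 in zones 2 and 3 (0.08 and -0.11), the step of BHLH101 from zone 1 to 2 (-0.01) and all 3 steps of AT3G12900 (-0.30, 0.26 and -0.08) at pH 5.7. Median centring turned PYE in zone 4 to 0.00 and its mean to -0.05, quantile normalization gave -0.01 and -0.04, 0.02 for AT3G13610 in zone 4 and -0.02 for AT3G12900 in zone 3, and a pseudocount of 1 gave -0.01 for the last. With 1 array left out, low pH effects ran from -0.92 to 0.14 for BHLH101 in zone 2, from -0.14 to 0.64, -1.10 to -0.15, -0.03 to 0.63 and -0.10 to 0.13 for PYE in zones 1, 2 and 3 and in the mean, from 1.43 to 2.60 and -0.15 to 0.06 for AT3G13610 in zones 1 and 4, and from -0.33 to 0.67, -1.56 to 0.08 and -0.23 to 0.25 for AT3G12900 in zones 1, 2 and 3. Zone steps ran from -0.01 to 1.05 (zone 1 to 2, pH 5.7), -0.94 to 0.10 (same, pH 4.6) and -0.11 to 0.73 (zone 2 to 3, pH 4.6) for BHLH101, from -0.57 to 0.22 (zone 1 to 2, pH 4.6) for PYE, from -0.48 to 0.05 (zone 3 to 4, pH 5.7) for AT3G13610, and from -0.30 to 1.34, -1.26 to 0.38 and -0.19 to 1.29 for the 3 steps of AT3G12900 at pH 5.7. Counts over all probe sets moved too: against 112, 67, 463, 478 and 1014 for low pH in zones 1 to 4 and in the mean, other settings gave 49 to 353, 15 to 116, 63 to 601, 295 to 1004 and 589 to 1187, and leaving out 1 array gave 32 to 331, 15 to 158, 92 to 1553, 66 to 821 and 525 to 1447. Against 521, 5024 and 1974 for the steps at pH 5.7, other settings gave 207 to 642, 3441 to 5215 and 908 to 2165, and 1 array less 123 to 760, 3469 to 5531 and 642 to 3613. At pH 4.6, against 1435, 3243 and 701, these were 1147 to 2403, 2767 to 3373 and 430 to 899, then 336 to 2117, 1503 to 3853 and 191 to 1042. The interaction count of 260 ran from 41 to 518, then from 77 to 1146. Highest counts for zone 3 (1553), the mean (1447) and the interaction (1146) came without the first pH 5.7 array of zone 3, and the lowest for zone 4 (66) without its first pH 4.6 array. Limits are the 2 arrays per group, replicates of unstated origin, and the dim signals of BHLH101 and AT3G12900.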
